A study of Mus musculus with 16 samples.

Results

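The intestinal wall meets drugs, plant compounds and toxins before the liver does, and the genes described here make the enzymes and the pump with which it handles them. The set holds 9 of the 37620 genes in the files: the cytochromes P450 Cyp3a11, Cyp3a13, Cyp3a25, Cyp2b10 and Cyp4f14, the carboxylesterases Ces2a and Ces2e, the glucuronosyltransferase Ugt1a1 and the efflux pump Abcb1a. They were chosen by name, with earlier results of these data known. All 9 were found by their Ensembl identifiers and passed the filter on low counts, with 16558 genes passing in all. Their RNA was measured in whole proximal jejunum (the stretch of small bowel just past the duodenum) of male CBA/J mice, an inbred strain, at 8 weeks of age, with 4 libraries in each of 4 groups. These were the methionine-supplemented diet with 8.5 Gy of gamma rays, the same diet with 0 Gy, the methionine-adequate diet with 8.5 Gy, and that diet with 0 Gy. The design text puts the supplementation at 300% and names 6 days, without saying whether those were days on the diet or days after exposure. In such bulk tissue fewer cells of a type and less RNA per cell cannot be told apart, which holds for every value given here. No label names the animal behind a library, so the p-values measure the spread between libraries.

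Xenobiotic metabolism works in phases. Cytochromes P450 add or expose a reactive oxygen group with electrons from the reductase Por and from cytochrome b5, carboxylesterases cut ester bonds, transferases such as Ugt1a1 attach a polar sugar acid, and pumps such as Abcb1a, the P-glycoprotein, push the compound back into the gut lumen. Most of these genes are switched on by nuclear receptors, chiefly the pregnane X receptor (Nr1i2) and the constitutive androstane receptor (Nr1i3), and in the small intestine they are made mainly by absorptive enterocytes of the villus. Cyp3a11 is the main drug-oxidising P450 of the mouse and the counterpart of human CYP3A4, while Cyp4f14 belongs to a family that hydroxylates the tails of fatty acids and of leukotriene B4.

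The promoters of the 5 members whose RNA differed with radiation when both diets were averaged are shown, since the receptors named above bind short motifs in DNA. Sites farther from the start than these windows reach were not searched. Each sequence runs 5′ to 3′ on the gene's own strand, from 250 bases before to 50 bases after the RefSeq start in GRCm38.p6, at chr5:145879805-145880104 (minus strand) for Cyp3a11, chr5:146009569-146009868 (minus) for Cyp3a25, chr1:88211709-88212008 (plus) for Ugt1a1, chr17:32917307-32917606 (minus) for Cyp4f14 and chr8:104926010-104926309 (plus) for Ces2e. The first 3 were higher and the last 2 lower in irradiated mice. Where RefSeq lists several starts, the first in its table is shown. Capitals mark the motifs found by a search of both strands.
Cyp3a11: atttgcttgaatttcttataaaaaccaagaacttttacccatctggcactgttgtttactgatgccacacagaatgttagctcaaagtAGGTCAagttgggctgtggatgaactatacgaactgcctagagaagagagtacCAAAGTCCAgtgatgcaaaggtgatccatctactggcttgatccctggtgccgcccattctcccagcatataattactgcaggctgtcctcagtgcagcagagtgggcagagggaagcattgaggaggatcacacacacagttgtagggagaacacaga
Cyp3a25: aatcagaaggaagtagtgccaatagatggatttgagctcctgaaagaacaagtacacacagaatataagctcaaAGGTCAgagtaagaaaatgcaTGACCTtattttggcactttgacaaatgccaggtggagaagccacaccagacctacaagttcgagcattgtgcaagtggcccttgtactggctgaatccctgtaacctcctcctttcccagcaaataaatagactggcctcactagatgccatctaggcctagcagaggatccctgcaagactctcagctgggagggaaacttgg
Ugt1a1: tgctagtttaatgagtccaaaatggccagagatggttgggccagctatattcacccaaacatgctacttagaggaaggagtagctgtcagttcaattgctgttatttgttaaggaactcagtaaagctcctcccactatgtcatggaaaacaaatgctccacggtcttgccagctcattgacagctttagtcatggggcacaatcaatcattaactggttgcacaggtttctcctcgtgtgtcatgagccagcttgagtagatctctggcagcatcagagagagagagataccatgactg
Cyp4f14: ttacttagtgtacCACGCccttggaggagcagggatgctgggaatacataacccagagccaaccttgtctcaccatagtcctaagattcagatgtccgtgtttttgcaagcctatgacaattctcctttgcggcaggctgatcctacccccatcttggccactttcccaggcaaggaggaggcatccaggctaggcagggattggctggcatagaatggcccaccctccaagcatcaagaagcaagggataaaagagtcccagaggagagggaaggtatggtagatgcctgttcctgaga
Ces2e: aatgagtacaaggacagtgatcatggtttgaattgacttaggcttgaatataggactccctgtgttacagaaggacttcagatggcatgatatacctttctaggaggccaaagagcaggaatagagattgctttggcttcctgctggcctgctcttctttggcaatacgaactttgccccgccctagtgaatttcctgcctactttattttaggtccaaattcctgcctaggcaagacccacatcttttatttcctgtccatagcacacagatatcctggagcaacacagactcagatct

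The search covered AGGTCA, the core that nuclear receptors bind, repeats of it, CAAAGTCCA, a sequence bound by Hnf4a, and GCGTG, the core bound by the aryl hydrocarbon receptor (Ahr). The Cyp3a11 window held AGGTCA with its first letter 162 bases before the start and CAAAGTCCA at 109 bases before it. The Cyp3a25 window held AGGTCA on the gene's strand at 176 bases and on the other strand at 155 bases before the start. Ces2a held the core once, at 226 bases before its start, so 3 of the 9 members had it, against 16.3% of the 32851 windows in the table. A member counts if any of its windows holds the core, and Cyp3a25 has 2 windows and Cyp4f14 4. Members and windows are thus unlike units. CAAAGTCCA stood in 0.475% of all windows and, among the members, in Cyp3a11. Cyp4f14 held the Ahr core in 1 of its 4 windows, the one shown, at 237 bases before the start. Cyp2b10 held it at 101 and 9 bases before its start, with 32.4% of all windows holding it. Cyp3a13, Ces2e and Ugt1a1 had none of these letters in the window. Neither had Abcb1a, but its RefSeq start lies 93.0 kb before the gene start in the annotation that gave the symbols, so that window may not be the promoter used here and nothing is read from it. The direct repeats of AGGTCA with 1, 3 or 4 bases between the copies, and TGAACT followed by 6 bases and AGGTCA, were in no member, and in 0.0396%, 0.00609%, 0.0152% and 0% of all windows. These are letter matches in a short window and say nothing of binding here or elsewhere.

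Some libraries stood apart, and they bear on several members. Depth lay between 2.57 and 15.51 M counts, with 3 libraries under 4 M. The summed level of 27 absorptive enterocyte markers, all of which passed the filter, ranged over 28570 to 112229 CPM (counts scaled to the effective library size) in irradiated supplemented libraries, against 61612 to 76736 CPM in unirradiated supplemented ones. On the adequate diet the range was 35382 to 87297 CPM in irradiated libraries and 67091 to 79479 CPM in unirradiated ones. Of the 27 markers, 6 were called higher and 5 lower in irradiated libraries averaged over the diets, and their sums did not differ between doses beyond their spread (exact two-sided permutation p = 0.657 on the supplemented and 0.6 on the adequate diet). Irradiated supplemented replicate 1 and irradiated adequate replicate 4 were the lowest of their groups. Small nucleolar RNAs took 11.3% of counts in irradiated and 4.04% in unirradiated supplemented libraries, and 8.57% and 3.58% on the adequate diet. Summed Paneth, goblet and crypt base markers were higher and red blood cell markers lower in irradiated libraries on both diets without overlap, with Paneth sums of 18000 and 5138 CPM on the supplemented and 12780 and 3913 CPM on the adequate diet (exact p = 0.0286, the smallest that 4 against 4 libraries allow, and 0.102 adjusted over 64 such tests). On the supplemented diet, summed exocrine pancreas markers (61.8 CPM in irradiated and 23.8 CPM in unirradiated libraries), ileal enterocyte markers (687 and 423 CPM) and colon epithelium markers (260 and 179 CPM) were also higher without overlap, with the same exact and adjusted p. These 3 sums overlapped between doses on the adequate diet. Singly, 8 of 11 pancreas markers tested were called higher on the supplemented diet, against 8.03% of all genes. Of the ileal markers 1 of 3 was called higher there, and of the colon markers 1 of 6. Of these, 1 ileal and 3 colon markers pointed down, so the 2 sums do not speak for their whole lists. What part this make-up had in the members' differences was not tested. The label of small bowel tissue was met by its defining enterocyte markers, such as the sucrase Sis (2026 to 10813 CPM) and Fabp2 (562 to 2177 CPM). Of 15 hepatocyte markers, 7 passed the filter. Of these, 4 were called higher and 0 lower in irradiated libraries averaged over the diets, against 15.7% and 15.3% of all genes. Their sum was lower instead, at 1267 and 1558 CPM in irradiated and unirradiated supplemented libraries and 1211 and 1474 CPM in adequate ones. It did not pass (exact permutation p = 0.0857 and 0.429). Alb, a defining hepatocyte marker, lay between 0.307 and 19.6 CPM and Ttr between 0.837 and 4.15 CPM, while Cps1, which enterocytes also express, lay between 846 and 2009 CPM.

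Levels between genes were compared per length, in TPM (read counts divided by transcript length and scaled to the same total) within a group. In unirradiated jejunum of both diets the order opened with Cyp4f14 (225 ± 57.1 TPM on the supplemented and 222 ± 21.3 TPM on the adequate diet, mean ± SD, n = 4 each), then Ces2e (173 ± 36.2 and 174 ± 19.4 TPM) and Cyp3a11 (49 ± 9.62 and 74.8 ± 21.7 TPM). Cyp3a13, Cyp3a25 and Ugt1a1 followed in that order on both diets. The lowest mean was that of Cyp2b10 on the supplemented diet (16.2 ± 8.81 TPM) and of Abcb1a on the adequate diet (18 ± 6.57 TPM). On the adequate diet the TPM ranges of Cyp4f14, Ces2e, Cyp3a11 and Cyp3a13 did not overlap between neighbours, and every later neighbour did. On the supplemented diet Ces2e and Cyp3a11 were the only neighbours without overlap. In irradiated jejunum the order opened with Cyp3a11 on both diets (73.0 ± 50.2 TPM on the supplemented and 98.2 ± 82.1 TPM on the adequate diet), followed by Ces2e (51.2 ± 28.3 and 45.9 ± 7.77 TPM), Cyp3a25 (44.7 ± 26.1 and 41.1 ± 24.9 TPM) and Cyp4f14 (36.4 ± 38.1 and 37.5 ± 6.85 TPM). All neighbours overlapped there. TPM between groups is not compared, because the share of small RNAs differed with dose.

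Radiation moved these genes in opposite directions. When the diets were averaged, Cyp3a11, Cyp3a25 and Ugt1a1 were higher and Cyp4f14 and Ces2e lower in irradiated libraries, which makes 5 of 9 called members against 31.0% of all genes tested. The 3 higher members compare with 15.7% of genes called higher, and the 2 lower ones with 15.3% called lower. Cyp2b10, Ces2a, Abcb1a and Cyp3a13 did not pass. With supplementation alone Cyp3a25 and Ugt1a1 were called higher and Cyp4f14 lower, 3 of 9 members against 15.2% of all genes (8.03% higher and 7.21% lower). On the adequate diet alone Cyp4f14 and Ces2e were called lower and no member higher, 2 of 9 members against 13.7% of all genes (7.13% higher and 6.58% lower). Without regard to the test, the dose groups of 3 members did not overlap on the supplemented diet (Cyp4f14, Ces2a and Ugt1a1), as for 18.7% of genes, and those of 2 members on the adequate diet (Cyp4f14 and Ces2e), as for 19.5%. The median log2 fold change of the 9 members was 0.73 averaged over the diets, 0.94 on the supplemented and 0.51 on the adequate diet, where the median of all genes was 0.00, 0.01 and 0.01. Both per-diet comparisons enter the averaged one. Calls are those of edgeR's quasi-likelihood test at a Benjamini-Hochberg adjusted p under 0.05 over all 16558 genes, and levels below are CPM after scaling.

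**Figure D1:**
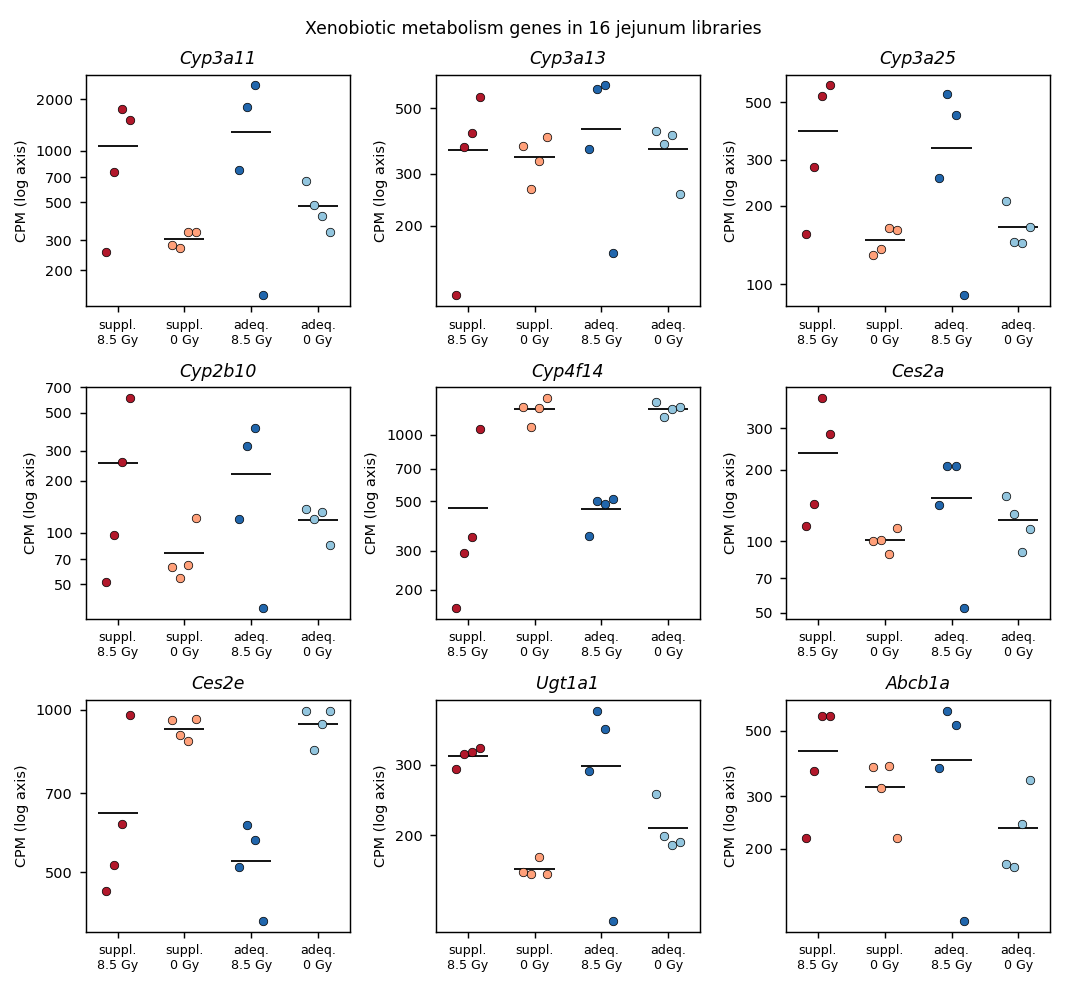
Level of each of the 9 genes in every library, in CPM on a log axis, by diet (suppl., supplemented; adeq., adequate) and dose, replicates 1 to 4 from left to right in a group. Points are libraries and lines group means. Cyp4f14 and Ces2e sit lower and Cyp3a11, Cyp3a25 and Ugt1a1 mostly higher with 8.5 Gy, and adequate 8.5 Gy replicate 4 is the lowest of all 16 points for 7 genes.

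Cyp4f14 had the smallest adjusted p of the members when the diets were averaged. It stood at 165, 294, 345 and 1063 CPM in irradiated supplemented libraries, against 1324, 1083, 1318 and 1462 CPM in unirradiated ones. With the adequate diet it had 351, 503, 485 and 513 CPM with radiation and 1405, 1199, 1299 and 1326 CPM without. No irradiated library reached an unirradiated one on either diet, although supplemented replicate 4, at 1063 CPM, came close to the lowest, at 1083 CPM. Averaged over the diets the log2 fold change was -1.48 ± 0.28 (SE, adjusted p = 8.34e-04 by edgeR), and it was -1.47 ± 0.39 (0.0187) on the supplemented and -1.5 ± 0.39 (0.0186) on the adequate diet. It was the 1 member whose 8 irradiated and 8 unirradiated libraries did not overlap, as 5.33% of all genes did not. The averaged call was kept with any library left out. The call on the supplemented diet was lost without irradiated supplemented replicate 2 (adjusted p = 0.0667) or 3 (0.0647), and that on the adequate diet without irradiated adequate replicate 1 (0.0663). Without irradiated supplemented replicate 4 the supplemented log2 fold change was -2.27 (8.83e-06). Its subfamily took 82.0% of its counts from Cyp4f14, and the summed Cyp4f counts had a log2 fold change of -1.34 ± 0.24 averaged over the diets (adjusted p = 6.27e-04).

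Cyp3a11 went the other way with a wide spread. It had 255, 751, 1752 and 1511 CPM in irradiated supplemented libraries and 280, 270, 334 and 334 CPM in unirradiated ones. Adequate-diet libraries had 767, 1804, 2430 and 142 CPM with radiation and 663, 480, 413 and 333 CPM without. In each irradiated group 3 libraries lay above every unirradiated library and 1 lay below all of them, namely supplemented replicate 1 and adequate replicate 4, the libraries lowest in enterocyte markers. Averaged over the diets the log2 fold change was 1.63 ± 0.47 (edgeR, adjusted p = 0.0171), a call kept with any library left out but lost with limma voom (1.13, adjusted p = 0.0805). Per diet it was 1.81 ± 0.67 (0.0819) on the supplemented and 1.45 ± 0.66 (0.161) on the adequate diet. Leaving out irradiated supplemented replicate 1 gave 2.14 (0.0436) on the supplemented diet, where leaving out irradiated adequate replicate 4 gave the same 1.81 with an adjusted p of 0.0203. On the adequate diet, leaving out irradiated adequate replicate 4 gave 1.82 (0.0279).

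Cyp3a25, a close relative on the same chromosome, had a similar pattern at lower levels. It had 156, 282, 529 and 581 CPM in irradiated supplemented libraries, against 129, 136, 165 and 161 CPM in unirradiated ones. In adequate libraries its level was 256, 538, 444 and 90.6 CPM with radiation and 208, 145, 144 and 166 CPM without. Adequate replicate 4 was again below all unirradiated libraries, and supplemented replicate 1 fell among them. The averaged log2 fold change was 1.2 ± 0.32 (edgeR, adjusted p = 0.0104), kept with any library left out. On the supplemented diet it was 1.39 ± 0.45 with an adjusted p of 0.0495, just under the threshold. That call was lost for 13 of the 16 libraries left out in turn, with an adjusted p of up to 0.135 (without irradiated supplemented replicate 3). It was kept without irradiated supplemented replicate 1 or irradiated adequate replicate 2 or 4. The adequate-diet value was 1.0 ± 0.45 (0.151), and 1.32 (0.0226) without irradiated adequate replicate 4.

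Cyp3a13, the third Cyp3a gene, did not pass in any of the 3 radiation comparisons. Its ratios to the other two are described further on. It had 116, 369, 414 and 548 CPM in irradiated and 373, 266, 332 and 399 CPM in unirradiated supplemented libraries. The adequate groups had 364, 582, 600 and 162 CPM with radiation and 419, 378, 405 and 257 CPM without. The lowest irradiated library lay below, and the highest above, every unirradiated one on each diet. The averaged log2 fold change was 0.15 ± 0.28, with a 95% interval of -0.45 to 0.76 (edgeR, adjusted p = 0.72). Cyp3a11, Cyp3a13 and Cyp3a25 held 55.1%, 26.3% and 18.2% of the counts of their subfamily. Reads of such similar genes are split among them by estimation, and the summed Cyp3a counts had an averaged log2 fold change of 1.11 ± 0.38 (adjusted p = 0.0357).

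Cyp2b10, the classic target of the constitutive androstane receptor in mouse liver, varied widely within its irradiated groups. It had 51.6, 96.9, 256 and 608 CPM in irradiated supplemented libraries, against 62.8, 54.7, 64.8 and 121 CPM in unirradiated ones. Fed the adequate diet, mice had 120, 317, 404 and 36.2 CPM with radiation and 138, 120, 131 and 84.1 CPM without. The irradiated libraries covered the whole range of the unirradiated ones and went past it on both sides on each diet. The averaged log2 fold change of 1.31 ± 0.52 did not pass (edgeR, adjusted p = 0.0714). It passed without irradiated adequate replicate 4 (1.49, 0.0298) or irradiated supplemented replicate 1 (1.48, 0.0372). Other Cyp2b genes were near 0, with 99.9% of the subfamily's counts on Cyp2b10.

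Of the carboxylesterases, Ces2e was lower in irradiated libraries and Ces2a did not pass the test. Ces2e, the member with the largest share of the Ces2 counts, had 462, 516, 615 and 978 CPM in irradiated supplemented libraries, against 957, 897, 875 and 961 CPM in unirradiated ones. Among adequate libraries it had 512, 612, 573 and 406 CPM with radiation and 995, 841, 940 and 993 CPM without. The groups did not overlap on the adequate diet, and on the supplemented diet replicate 4 alone lay above all unirradiated libraries. The log2 fold change was -0.68 ± 0.15 averaged over the diets (edgeR, adjusted p = 0.00234), -0.84 ± 0.21 (0.0138) on the adequate diet and -0.52 ± 0.21 (0.102) on the supplemented diet, where it was -0.80 (0.00221) without irradiated supplemented replicate 4. The averaged call was kept with any library left out.

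Ces2a, at 10.5% of the Ces2 counts, had 116, 144, 402 and 284 CPM in irradiated and 100, 101, 88.9 and 114 CPM in unirradiated supplemented libraries. With the adequate diet it had 143, 208, 208 and 52.3 CPM with radiation and 156, 131, 90.4 and 113 CPM without. The supplemented groups did not overlap, while adequate replicate 4 fell below all unirradiated libraries. Even so, the log2 fold change of 1.23 ± 0.41 on the supplemented diet missed the threshold (edgeR, adjusted p = 0.0529), as did the averaged 0.77 ± 0.29 (0.0514). For the adequate diet it was 0.32 ± 0.40 (0.656). Both near misses passed without irradiated adequate replicate 4 (0.0162 on the supplemented diet and 0.00761 averaged) and without irradiated supplemented replicate 1 (0.0309 and 0.0254), and the averaged one also without irradiated supplemented replicate 2 (0.0393). Summed over the subfamily, the averaged Ces2 change was -0.42 ± 0.17 (adjusted p = 0.072). Ces2c, which held 29.5% of the Ces2 counts, had an averaged log2 fold change of -0.21 ± 0.21 (0.473).

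Ugt1a1, the enzyme that conjugates bilirubin and many drugs, had 292, 319, 323 and 330 CPM in irradiated supplemented libraries, against 162, 160, 176 and 160 CPM in unirradiated ones. Adequate-diet libraries had 289, 409, 368 and 122 CPM with radiation and 254, 199, 189 and 192 CPM without. The supplemented groups lay far apart with a small spread, and replicate 1, at 292 CPM, was the lowest of the irradiated ones. On the adequate diet 3 irradiated libraries lay above and replicate 4 below every unirradiated one. The log2 fold change was 0.94 ± 0.25 on the supplemented diet (edgeR, adjusted p = 0.0174), 0.51 ± 0.25 (0.182) on the adequate diet and 0.73 ± 0.18 (0.00497) averaged. The supplemented and averaged calls were kept with any library left out, and without irradiated adequate replicate 4 the change on the adequate diet was 0.77 (0.00213). Ugt1a genes share their last exons and differ in the first, so reads from the shared part are divided among them by estimation. Ugt1a1 took 39.4% and Ugt1a7c 42.6% of the Ugt1a counts, and the summed Ugt1a counts had an averaged log2 fold change of 0.17 ± 0.15 (0.39).

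Abcb1a, 1 of the 2 mouse genes for P-glycoprotein, had 218, 365, 560 and 562 CPM in irradiated and 376, 321, 380 and 218 CPM in unirradiated supplemented libraries. In adequate libraries its level was 374, 583, 524 and 114 CPM with radiation and 178, 174, 243 and 342 CPM without. The supplemented groups overlapped widely, and on the adequate diet 3 irradiated libraries lay above every unirradiated one. The averaged log2 fold change of 0.58 ± 0.29 did not pass (edgeR, adjusted p = 0.145). It was 0.74 (0.0173) without irradiated adequate replicate 4, and the change on the adequate diet, 0.76 ± 0.41 (0.238) with all libraries, was 1.07 (0.0329) without that one. Its relative Abcb1b held under 1% of their joint counts, with 99.5% on Abcb1a.

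**Figure D2:**
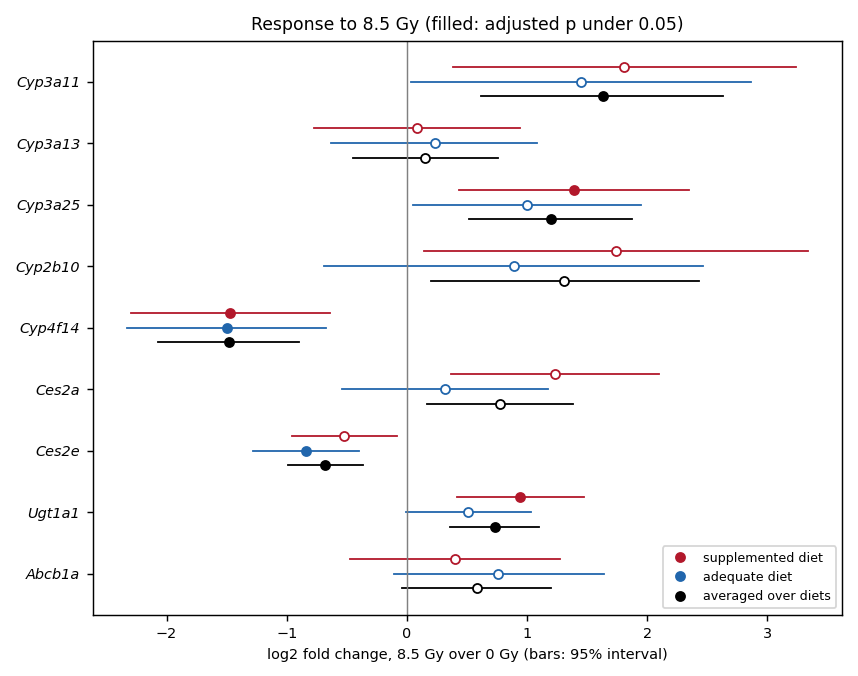
Log2 fold change of each gene for 8.5 Gy over 0 Gy on the supplemented diet, on the adequate diet and averaged, with 95% intervals. Filled points passed at an adjusted p under 0.05. Cyp4f14 and Ces2e lie below 0 and the other 7 genes above 0 in all 3 comparisons, and the intervals of Cyp3a11 and Cyp2b10 are the widest.

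The spread within groups was itself larger after radiation. The SD of log2 CPM was larger in the irradiated than in the unirradiated group for 9 of 9 members on each diet, as it was for 64.5% of all genes on the supplemented and 59.9% on the adequate diet. Its median over the members was 0.88 in irradiated and 0.17 in unirradiated supplemented libraries, where over all genes it was 0.29 and 0.21. With the adequate diet it was 0.94 and 0.32 for the members and 0.29 and 0.24 for all genes. Within the irradiated groups the same libraries recurred. Supplemented replicate 1 was the lowest of its group for 9 of 9 members, and adequate replicate 4 for 8 of 9, all but Cyp4f14, for which it was the highest. At the other end, supplemented replicate 4, highest of all libraries in enterocyte markers, was the highest of its group for 7 of 9.

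**Figure D3:**
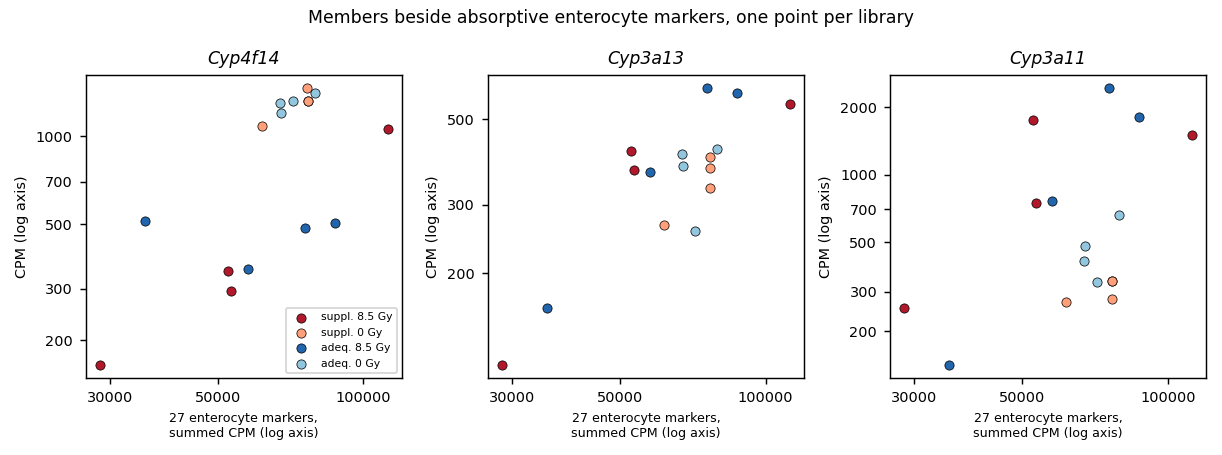
Levels of Cyp4f14, Cyp3a13 and Cyp3a11 in CPM against the summed CPM of 27 absorptive enterocyte markers, both on log axes, with 1 point per library. The irradiated libraries at 28570 and 35382 CPM of markers are the lowest for Cyp3a13 and Cyp3a11, while for Cyp4f14 the one at 35382 CPM, adequate replicate 4, is level with the rest of its group.

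With the irradiated library of each diet that was lowest in enterocyte markers left out, a choice made after the data were seen, more members passed. These libraries were also the lowest of their irradiated groups for 9 of 9 members (supplemented) and 8 of 9 (adequate). Leaving them out therefore raises the irradiated means of those members whatever the cause, and the added higher calls are no support of their own. All 7 that pointed up were called higher when the diets were averaged, and Cyp4f14 and Ces2e were again called lower, which makes 9 of 9 members against 30.4% of 16710 genes then tested (15.3% higher and 15.1% lower). The added calls were Cyp2b10 (log2 fold change 1.66, edgeR, adjusted p = 0.00874), Ces2a (1.03, 0.00126), Abcb1a (0.84, 0.00276) and Cyp3a13 (0.44, 0.0397). With the supplemented diet, 5 members were higher and 1 lower, against 14.0% of genes (7.71% higher and 6.25% lower), with Cyp3a11 at 2.14 (0.00138), Ces2a at 1.46 (0.00332) and Cyp2b10 at 2.08 (0.0324) as the added calls. On the adequate diet 4 were higher and 2 lower, against 16.7% of genes (8.65% higher and 8.03% lower), the higher ones being Cyp3a11 (1.82, 0.00353), Cyp3a25 (1.32, 0.00326), Ugt1a1 (0.77, 0.00151) and Abcb1a (1.07, 0.0111). What part the make-up of those libraries had in the full result was not tested.

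Ratios within a library do not depend on its scaling, and they are given as a description for 4 pairs chosen after their values were seen. Ces2a over Ces2e was 0.252, 0.280, 0.654 and 0.290 in irradiated supplemented libraries, against 0.102 to 0.119 in unirradiated ones. The adequate libraries were at 0.279, 0.340, 0.363 and 0.129 with radiation and 0.0962 to 0.157 without. Cyp3a11 over Cyp3a13 was 2.04 to 4.23 in irradiated and 0.750 to 1.01 in unirradiated supplemented libraries. For the adequate diet it was 2.11, 3.10, 4.05 and 0.873 with radiation and 1.02 to 1.58 without. Both ratios separated the supplemented groups fully. Cyp3a25 over Cyp3a13 was 0.764 to 1.35 in irradiated and 0.347 to 0.511 in unirradiated supplemented libraries, and 0.558 to 0.924 against 0.355 to 0.647 on the adequate diet. Ugt1a1 over Ugt1a7c was 0.975 to 1.78 in irradiated and 0.535 to 0.657 in unirradiated supplemented libraries, and 0.707 to 1.58 against 0.665 to 0.848 on the adequate diet. Adequate replicate 4 had the lowest ratio of its irradiated group in all 4 pairs. By exact permutation tests each ratio had p = 0.0286 between doses on the supplemented diet, 0.0762 adjusted over 16 tests, so none passed. Without radiation, Cyp3a11 over Cyp3a13 and Ugt1a1 over Ugt1a7c also separated the diets without overlap, lower on the supplemented diet, with the same p-values. As the pairs were chosen after their values were seen, these p-values are no independent support.

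**Figure D4:**
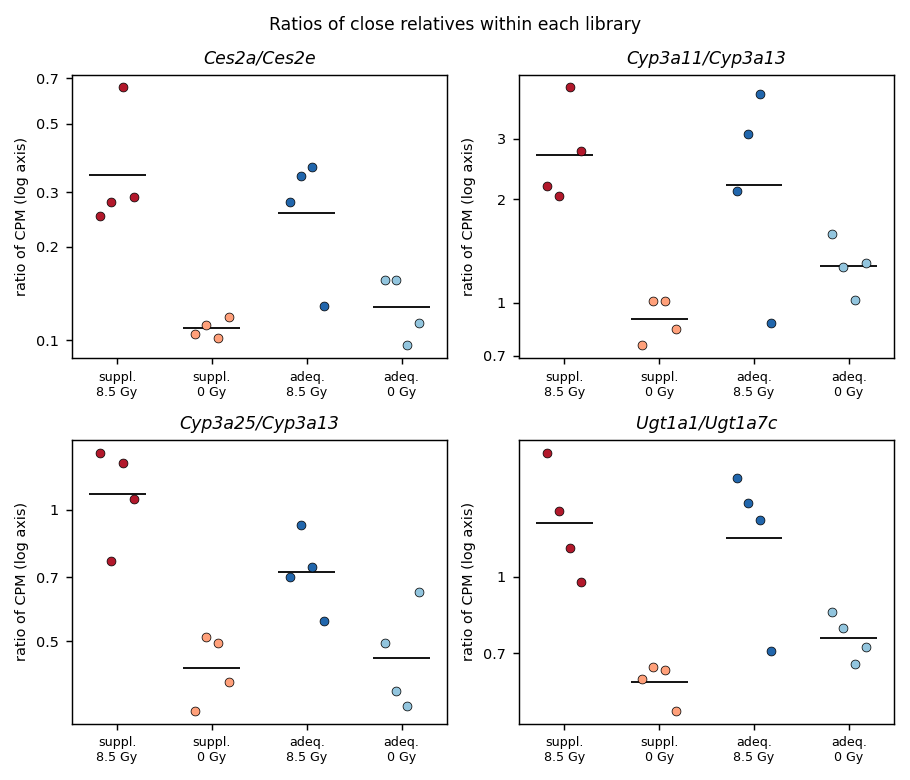
Ratio of CPM between close relatives in each library, on a log axis, by diet (suppl., supplemented; adeq., adequate) and dose. Points are libraries and lines geometric means. On the supplemented diet all irradiated points lie above all unirradiated ones in the 4 panels, while on the adequate diet irradiated replicate 4 falls among the unirradiated points, or below them for Cyp3a11 over Cyp3a13.

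Methionine supplementation was compared at each dose. Without radiation no member passed, as 0.199% of all genes did. The log2 fold changes, supplemented over adequate, ran from -0.64 for Cyp2b10 (95% interval -2.21 to 0.93) to 0.47 for Abcb1a (-0.41 to 1.34), and the lowest adjusted p was 0.635 (edgeR), for Ugt1a1. Ugt1a1 was lower in each supplemented library, at 160 to 176 CPM, than in any adequate one, at 189 to 254 CPM (log2 fold change -0.34, interval -0.86 to 0.18), and 1 of 9 members without overlap compares with 9.14% of all genes. For Cyp4f14 and Ces2e the intervals were -0.82 to 0.80 and -0.47 to 0.41, so that changes of a whole log2 unit lay outside them. For Cyp3a11, at 304 ± 34.4 CPM on the supplemented and 472 ± 140 CPM on the adequate diet (SD, n = 4 each), the interval was -2.03 to 0.76, the widest but for that of Cyp2b10.

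After radiation no member passed for diet either, and 0.00% of all genes did. The log2 fold changes ran from -0.27 for Cyp3a11 (interval -1.65 to 1.12) to 0.64 for Ces2a (-0.22 to 1.5). With the doses averaged, 0 members and 0.0966% of all genes passed. For the interaction, the radiation response on the supplemented minus that on the adequate diet, 0 members and 0.00% of genes passed. Its largest values were 0.92 for Ces2a (-0.30 to 2.13) and 0.85 for Cyp2b10 (-1.35 to 3.06), and Cyp4f14 had 0.03 (-1.12 to 1.17). So a call on 1 diet and not on the other, as for Ces2e and Ugt1a1, was not shown to be a difference between the diets. In these 4 comparisons edgeR gave 0 of 9 members an unadjusted p under 0.05, and DESeq2 and limma voom also called 0. Over all genes an unadjusted p under 0.05 was given to 1977 without radiation, 871 after it, 2205 with the doses averaged and 738 for the interaction, where DESeq2 called 226, 11, 288 and 2 genes and limma voom 51, 0, 12 and 0. Mitochondrial ribosomal RNA took 2.17% of counts in unirradiated supplemented and 4.67% in unirradiated adequate libraries, and 2.19% and 5.46% in irradiated ones. The diets did not overlap at either dose, but neither difference passed (exact permutation p = 0.0286 each, 0.102 adjusted over 64 tests). What part this RNA had in the diet comparisons was not tested.

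The wider pathway was read from 7 lists, of which 172 genes that are no members were tested. Averaged over the diets, 30 were called higher and 40 lower in irradiated libraries, with a median log2 fold change of -0.04, where 15.7% of all genes were called higher and 15.3% lower. In the supplemented comparison 13 were higher and 20 lower (8.03% and 7.21% of all genes), and on the adequate diet 9 were higher and 26 lower (7.13% and 6.58%). Without the irradiated library of each diet lowest in enterocyte markers, 47 were higher and 36 lower averaged. The supplemented diet had 34 and 16, and the adequate diet 27 and 23. Of all genes then tested, 15.3% were higher and 15.1% lower averaged. The shares were 7.71% and 6.25% on the supplemented and 8.65% and 8.03% on the adequate diet. These libraries were chosen after the data were seen. Leaving them out raises the irradiated means of genes that were low in them, whatever the cause. The added higher calls, here and in the lists below, are thus no support of their own. Slc15a1, a listed drug transporter, is also an enterocyte marker. Without the 3 libraries under 4 M counts the numbers were 26 and 33 averaged, 13 and 12 on the supplemented diet and 2 and 17 on the adequate diet. In the 4 comparisons that involve diet, edgeR called 0 of the 172. An unadjusted p under 0.05 was given to 14 of them without radiation, 5 after it, 16 with the doses averaged and 6 for the interaction, where DESeq2 called 4, 0, 2 and 0 and limma voom 0 in each.

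Among 32 other P450s of families 1 to 4, 9 were higher and 4 lower in the averaged comparison (median 0.10), against 15.7% and 15.3% of all genes. Cyp2j9, of a family of fatty acid epoxygenases, was higher (10.9 and 5.45 CPM in irradiated and unirradiated libraries, log2 fold change 0.98 ± 0.18, edgeR, adjusted p = 7.62e-04). Cyp4f40, of the same subfamily as Cyp4f14, was lower (36.4 and 69.5 CPM, -0.94 ± 0.15, 1.58e-04), as was the fatty acid hydroxylase Cyp2u1 (13.0 and 35.4 CPM, -1.44 ± 0.27, 0.00102). Cyp1a1, the usual readout of Ahr activity, did not pass (0.12 ± 1.04, 0.946). It had 0, 3.83, 8.61 and 307 CPM in irradiated supplemented libraries, against 11.7 to 54.3 CPM in unirradiated ones, so that 1 irradiated library carried most of its level there. Adequate libraries had 1.16, 11.6, 51.8 and 6.58 CPM with radiation and 21.1, 13.6, 132 and 6.37 CPM without. The highest library on that diet was thus an unirradiated one.

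Of 36 other hydrolases and phase I enzymes, 5 were higher and 9 lower in the averaged comparison (median 0.04), against 15.7% and 15.3% of all genes. Without the pair of libraries lowest in enterocyte markers, chosen as said above, 14 were higher and 7 lower, against 15.3% and 15.1%. With all libraries Ces2g had the smallest p of the 36. It stood at 59.6, 69.1, 77.1 and 58.0 CPM in irradiated supplemented libraries, against 144, 168, 160 and 147 CPM in unirradiated ones, and at 44.0 to 68.4 against 126 to 159 CPM on the adequate diet. Its log2 fold change was -1.31 ± 0.10 (edgeR, adjusted p = 2.54e-07), with no overlap on either diet. The esterase relative Aadac was lower (-0.49 ± 0.07, 1.31e-04) and the aldo-keto reductase Akr1b8 higher (2.85 ± 0.43, 2.30e-04). Akr1b8 averaged 18.3 CPM in irradiated and 2.52 CPM in unirradiated libraries.

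Of 27 other glucuronosyl-, sulfo-, acetyl- and methyltransferases, 5 were higher and 3 lower in the averaged comparison (median -0.06), against 15.7% and 15.3% of all genes. Without the pair of libraries lowest in enterocyte markers, chosen as said above, 8 were higher and 1 lower, against 15.3% and 15.1%. With all libraries Ugt2a3 was higher (117 and 66.7 CPM in irradiated and unirradiated libraries, 0.80 ± 0.19, edgeR, adjusted p = 0.00412), as was the phenol sulfotransferase Sult1a1 (0.86 ± 0.20, 0.00326). The arsenic methyltransferase As3mt was lower (-0.26 ± 0.07, 0.0108). Of 22 glutathione transferases, which join glutathione to reactive compounds, 3 were higher and 8 lower (median -0.12), against 15.7% and 15.3% of all genes. Gstm7 (-1.28 ± 0.12, 1.62e-06), Gstp2 (-0.99 ± 0.11, 1.20e-05) and Gstp1 (-0.85 ± 0.11, 2.42e-05) were lower with no overlap on either diet. The close copies Gstp1 and Gstp2 share sequence, so the division of reads between them is uncertain.

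Of 22 other drug transporters, 5 were higher and 6 lower in the averaged comparison (median 0.02), against 15.7% and 15.3% of all genes. The organic anion transporter Slco4a1 (-1.08 ± 0.12, edgeR, adjusted p = 6.18e-06) and the pump Abcc10 (-0.56 ± 0.10, 7.47e-04) were lower. Of 25 receptors, partners and cofactors, 1 was higher and 10 lower (median -0.16), against the same 15.7% and 15.3%. Nr0b2, a repressor that bile acids induce through their receptor, was at 0 to 2.52 CPM in irradiated and 6.06 to 8.59 CPM in unirradiated supplemented libraries. With the adequate diet it was at 0.307 to 2.58 CPM with radiation and 4.57 to 12.3 CPM without, and its averaged log2 fold change was -2.56 ± 0.42 (3.63e-04). Keap1, the sensor that restrains the antioxidant response (-0.52 ± 0.08, 9.16e-05), was lower too, and Ahr was higher (0.28 ± 0.09, 0.0277).

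Nr1i2 and Nr1i3, the receptors named at the outset, did not pass the test. Nr1i2 averaged 58.5 CPM in irradiated and 60.7 CPM in unirradiated libraries (log2 fold change -0.05 ± 0.18, edgeR, adjusted p = 0.857), and Nr1i3 49.2 and 49.9 CPM (-0.01 ± 0.16, 0.973). Hnf4a, which supports many enterocyte genes, averaged 299 and 328 CPM (-0.14 ± 0.10, 0.326). Of 8 genes of electron supply and of heme synthesis or breakdown, 2 were higher and 0 lower in the averaged comparison, against 15.7% and 15.3% of all genes. These were cytochrome b5, Cyb5a (211 and 144 CPM in irradiated and unirradiated libraries, 0.55 ± 0.18, 0.0247), and the heme oxygenase Hmox1 (1.04 ± 0.23, 0.00303), which breaks heme down. The reductase Por had 0.41 ± 0.26 (0.244). In the other 6 comparisons, none of Nr1i2, Nr1i3, Ahr, Hnf4a, Por and Cyp1a1 passed, and their lowest adjusted p was 0.0949, for Ahr on the adequate diet (0.33 ± 0.13).

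**Figure D5:**
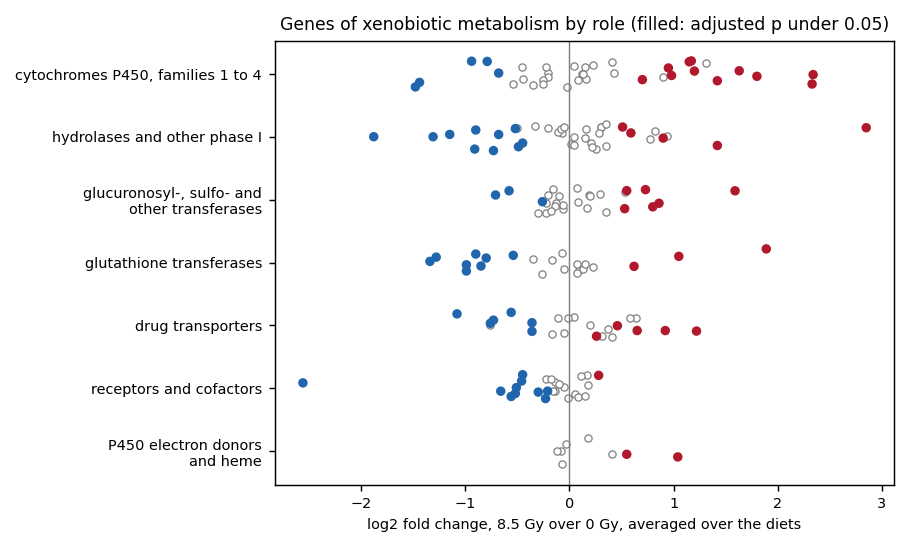
Log2 fold change for 8.5 Gy over 0 Gy, averaged over the diets, of the members and the other tested genes of 7 lists, with 1 point per gene and vertical scatter for legibility alone. Filled red points passed higher, filled blue points passed lower and open points did not pass. P450s spread to both sides, while glutathione transferases (3 higher, 8 lower) and receptors and cofactors (1 higher, 10 lower) have most of their filled points below 0. Of all genes tested, 15.7% passed higher and 15.3% lower.

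Genes whose level followed each member most closely over the 16 libraries were ranked by Pearson's r of log2 CPM among 9140 protein-coding genes. The libraries share group and depth differences, so the values describe likeness and carry no test. Cyp4f14 had Gpd1 among its nearest (r = 0.990). The irradiated and unirradiated libraries lie apart for Cyp4f14, and no r within a dose is given. Cyb5a was among the nearest of Cyp3a11 (0.946), Cyp3a25 (0.950), Cyp2b10 (0.926) and Ces2a (0.908), the 4 members that share it. The nearest gene was Akr1b7 for Cyp3a11 (0.958), Idh1 for Cyp3a25 (0.952), Slc22a23 for Cyp3a13 (0.953), Trappc9 for Ces2e (0.960), Cd36 for Ugt1a1 (0.964) and Stx5a for Abcb1a (0.925). Cyp2b10 and Ces2a were nearest to Cyb5a. In second place stood Slc9a3r1 for Cyp3a13 (0.948), Egln3 for Cyp2b10 (0.925), Aldh1a1 for Ces2a (0.878), Aldh2 for Ces2e (0.956), Arhgap12 for Ugt1a1 (0.956) and Fam83h for Abcb1a (0.909).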

How the data were processed

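RNA was sequenced in 16 libraries of proximal jejunum, with ribosomal RNA removed and libraries built by a small RNA protocol, per the labels' protocols. The submitters' processing notes list Bowtie2 2.2.9, RSEM 1.3.0, edgeR 3.2.4 and the build NCBIM37, without their roles. The deposited files give RSEM expected counts, which were rounded to whole numbers, and TPM, used for levels between genes alone. Symbols came from GENCODE M21, a later build, and promoters from RefSeq GRCm38.p6, which lists all 9 members (the Abcb1a start there is far from that in GENCODE).

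Groups were read from the labels, whose replicates carry no numbers, so the numbers used here are names in order of deposit. The 9 members, the 7 pathway lists and the marker lists were chosen with earlier results of these data known. Genes passing filterByExpr (16558 of 37620) were scaled by TMM and tested with edgeR 4.0.16 (robust quasi-likelihood F test, 1 mean per group over all 16 libraries, R 4.3.3), adjusted by Benjamini-Hochberg over all genes tested, two-sided, and called at an adjusted p under 0.05. DESeq2 1.42.0, limma voom 3.58.1 and other settings were alternatives. Marker sums were compared with exact permutation tests. Beside the members, the genes named are the up to 3 called genes with the smallest p in each list averaged over the diets, 6 regulators and cofactors (Nr1i2, Nr1i3, Ahr, Hnf4a, Por and Cyp1a1), and the 2 genes nearest to each member by Pearson's r among those with a mean log2 CPM of at least 3. A few genes that this rule names are not reported here. Close relatives outside this rule (Ces2c, Ugt1a7c, Abcb1b) are named where reads may be divided with a member. The fit was tested on simulated counts with known changes. Depth was 2.57 to 15.51 M counts, so that each member had between 176 and 25434 counts in a library. Counting error was not set against the spread between libraries. That spread could be narrow, as for Ugt1a1 on the supplemented diet (SD 5.24% of the mean with and 4.72% without radiation).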

Additional observations from a re-analysis of the deposited data

Results flagged for a closer look

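Over 36 sets of 4 libraries (9 members in 4 groups), 3 had a library far from the other 3, where chance gives about 1 in 20 sets. Cyp2b10 in unirradiated supplemented replicate 4 stood at 121 CPM, against 54.7 to 64.8 CPM in the other 3 libraries. Ugt1a1 in unirradiated adequate replicate 1, the library with the fewest counts at 2.57 M, stood at 254 CPM, against 189 to 199 CPM in the others. Ugt1a1 in unirradiated supplemented replicate 3 stood at 176 CPM, against 160 to 162 CPM in the others. The low irradiated libraries described above were not among these. Their groups were wide for most members, but narrower for Ugt1a1 on the supplemented diet (292 to 330 CPM). They were narrower too for Cyp4f14 (351 to 513 CPM) and Ces2e (406 to 612 CPM) on the adequate diet.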

How the results depend on the processing

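Among 1611 log2 fold changes of members under alternatives no called one changed sign, and 1541 stayed on their side of the threshold. A call was lost in 35 and gained in 35, all in the radiation comparisons. The 1541 include every value for diet and the interaction, where no member was called in any setting. They thus do not measure how stable the calls were. An adjusted p under 0.01 left 1 member higher and 2 lower averaged over the diets, 0 and 0 on the supplemented diet and 0 lower on the adequate diet. On the supplemented diet, DESeq2 size factors, scaling on protein-coding genes, limma voom and no filter on low counts each left 1 member higher (Cyp3a25 lost, adjusted p 0.0537, 0.0521, 0.121 and 0.118). The DESeq2 Wald test and the fit of the 2 groups alone made 4 higher there, and that fit left 0 lower (Cyp4f14 0.0799), as did omitting the 3 libraries under 4 M counts (0.0527). The DESeq2 Wald test made 5 higher averaged. Counts summed over subfamilies gave 1 lower on the adequate diet, 0 higher on the supplemented diet and 1 lower averaged. Without the irradiated library of each diet lowest in enterocyte markers, 4 were higher on the adequate diet, 5 on the supplemented diet and 7 averaged. Leaving out each library in turn gave 1 to 4 higher and 0 to 2 lower on the supplemented diet, 0 to 4 and 1 to 2 on the adequate diet, and 3 to 6 and 2 to 2 averaged. For diet and the interaction, leaving out any library gave 0 members. Over all genes, radiation counts with each library left out were 805 to 1821 higher and 627 to 1806 lower on the supplemented diet (1329 and 1194 with all libraries), and 690 to 1408 and 541 to 1379 on the adequate diet (1180 and 1090), where omitting the 3 libraries under 4 M counts gave 624 lower. An adjusted p under 0.01 gave 577 and 465, 485 and 386, and averaged 1547 and 1395 against 2601 and 2535. For diet without radiation, 28 higher and 5 lower genes compare with 165 and 61 by DESeq2, 111 and 28 with the 2 groups alone, 106 and 27 without the libraries lowest in enterocyte markers, and 0 and 0 without the 3 shallow libraries. With the doses averaged, 7 and 9 compare with 163 and 125 by DESeq2, 126 and 69 without the libraries lowest in enterocyte markers, and 0 and 0 without the shallow ones. The causes were not tested. No paired analysis was possible because the labels give no replicate numbers. Intervals for Cyp3a11 and Cyp2b10 span over 2 log2 units, so modest changes of them were not detectable with 4 libraries.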
